A study of Mus musculus with 9 samples.

Results

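The collagen chain genes are described here in the mouse testis at 8, 16 and 24 days of age. They were chosen by symbol alone: a row of the array counted if its only gene symbol was Col, a number, the letter a and a chain number. This gave 46 rows for 44 chains among 19935 genes measured by rows of 1 gene, and no symbol found in this way belonged to a gene other than a collagen chain. The chains were divided into 11 fibrillar chains, the 6 type IV chains of basement membrane and 27 others. The others comprised 6 beaded filament chains of type VI, 9 chains of the fibril-associated kind (FACIT), 4 network or anchoring chains, 4 transmembrane chains, 2 multiplexins and 2 further chains, Col26a1 and Col28a1.

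RNA of the whole testis of male Swiss albino mice was hybridised to 9 arrays, with 3 arrays for each age. No animal was treated, and the design text calls the 3 arrays of an age biological replicates. They are numbered here 1 and 2 as in their titles, and the array of each age whose title has no number is called replicate 3. The ages lie within the first wave of spermatogenesis, so that the study's question is how testicular RNA differs between these stages. The authors deposited log2 values relative to the median of each row over the 9 arrays. A value of 1 therefore means 1 log2 unit above that row's own median, and a value of 0 is that median. Blank cells of the deposited table were read as 0, and the 46 collagen rows had 58 of them, 22 at 8 days, 31 at 16 days and 5 at 24 days. Many of the readings of 0.00 below are such cells, among them both zeros of Col1a1, Col3a1 and Col6a1 at 16 days and all 3 zeros of Col7a1. Such values compare ages for 1 gene, carry no expression level, and cannot rank one chain against another by abundance. In RNA of a whole organ, fewer cells of a type and less RNA per cell cannot be told apart.

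Collagens are extracellular proteins of 3 chains wound around each other, and a short repeat with glycine lets the chains pack tightly. Fibrillar collagens such as types I, III and V assemble into the fibres of connective tissue. Type IV collagen forms the sheet at the core of basement membranes. In the testis that sheet surrounds the seminiferous tubules, between the Sertoli and germ cells inside and the peritubular myoid cells outside, and it also underlies blood vessels. The chains are hydroxylated and glycosylated in the endoplasmic reticulum, trimmed outside the cell and joined by crosslinks.

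Stretches at the starts of 5 chain genes that fell in both intervals are shown, because they differ in the short motifs usual in promoters. The Col4a1 and Col4a2 genes lie head to head on chromosome 8 and are read in opposite directions from starts only 21 bases apart in the RefSeq annotation of GRCm38.p6. The 22 bases from one start to the other, at chr8:11312805-11312826 on the plus strand, carry a GC box (GGGCGG), in capitals. By these starts the stretch is read in both genes, so it lies after each start and not upstream of it. The other sequences are the 250 bases upstream of the start, each written on the strand of its gene, with CCAAT boxes (CCAAT or ATTGG), GC boxes (GGGCGG or CCGCCC) and the TATA motif (TATAAA) in capitals. They lie at chr6:4505368-4505617 on the plus strand (Col1a2), chr1:45311288-45311537 on the plus strand (Col3a1) and chr10:77166531-77166780 on the minus strand (the upstream one of the Col18a1 starts).
Col4a1 and Col4a2, shared start: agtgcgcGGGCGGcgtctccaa
Col1a2: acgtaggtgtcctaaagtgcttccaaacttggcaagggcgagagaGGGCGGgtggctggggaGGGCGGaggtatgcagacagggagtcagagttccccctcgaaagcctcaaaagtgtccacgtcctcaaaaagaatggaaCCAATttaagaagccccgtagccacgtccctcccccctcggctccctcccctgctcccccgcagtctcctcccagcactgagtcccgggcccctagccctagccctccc
Col3a1: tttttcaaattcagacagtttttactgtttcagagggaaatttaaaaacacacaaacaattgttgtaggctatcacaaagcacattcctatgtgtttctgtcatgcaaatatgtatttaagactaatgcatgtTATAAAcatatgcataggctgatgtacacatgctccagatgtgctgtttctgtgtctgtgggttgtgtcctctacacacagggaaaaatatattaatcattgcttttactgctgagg
Col18a1: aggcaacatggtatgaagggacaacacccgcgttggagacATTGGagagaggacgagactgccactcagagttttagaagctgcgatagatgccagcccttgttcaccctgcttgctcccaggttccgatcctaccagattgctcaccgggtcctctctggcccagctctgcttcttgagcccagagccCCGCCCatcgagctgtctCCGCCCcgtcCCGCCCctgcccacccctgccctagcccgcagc

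These windows had no common layout. Col1a2, a chain of type I collagen, had a CCAAT box beginning 109 bases before the start and 2 GC boxes, the nearer one beginning 188 bases before it. Col3a1, the chain of type III collagen, had neither of these motifs and a TATA motif beginning 117 bases before the start. Col18a1, whose C-terminal fragment is endostatin, had a CCAAT box in its reverse form and 3 GC boxes in the window shown. The window of its other listed start held 0 matches to any of the 3 motifs. The RefSeq table held 38 promoters of 35 of the 44 chains. A GC box on either strand was present in 22 of these 38 windows (57.9%), against 32.7% of all 32851 promoter windows of the same length. A CCAAT box on either strand was present in 13 of 38 (34.2%), against 33.8% of all windows, and a TATA motif on the strand of the gene in 5 of 38 (13.2%), against 7.59%. Of the 10 windows of chains that fell in both intervals, 4 held a CCAAT box (40%), 5 a GC box (50%) and 1 a TATA motif. The motifs were searched as letters, and a match is a description of the sequence. In the collagen windows matches to different motifs share no letters, but the GC boxes nearest the start overlap each other in Col8a2 and in 1 window of Col6a2.

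Marker genes of germ cells followed the ages in the labels. The 8 spermatocyte markers averaged -3.78 to -3.52 in the arrays of 8 days, 0.01 to 0.39 in those of 16 days and 0.61 to 0.77 in those of 24 days. The 8 spermatid markers averaged -0.27 to 0.01, -0.28 to 0.00 and 3.54 to 4.65 at these ages. Replicate 1 of 8 days and replicate 2 of 16 days stood apart in 1027 olfactory receptor genes (receptors of the nasal epithelium). The medians of these genes were 0.17 in both arrays and between -0.05 and 0.03 in the other 7. The same arrays were high for many collagen chains: the median chain lay 0.35 above the mean of the other 8-day arrays in replicate 1 of 8 days and 0.25 above the other 16-day arrays in replicate 2 of 16 days, against 0.03 and 0.04 for all genes. They were the highest 2 of the 9 arrays for 24 of 44 chains (54.5%), against 24.4% of all genes. Of the 18 chains not called over the whole span 15 were among these 24, and of the 10 chains that fell in both intervals 0 were. In those 10 chains every 8-day array lay above every 16-day array, so no 16-day array could be among the highest 2. High readings in these arrays also widen the spread on which a call depends. Neither count therefore shows how far the calls depend on these arrays. The others of the 24 were called over the whole span: Col4a5, Col4a6, Col5a1, Col5a3, Col6a6, Col11a1, Col23a1, Col25a1 and Col26a1. The part of these arrays in the results was not tested beyond the values given without them.

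**Figure D1:**
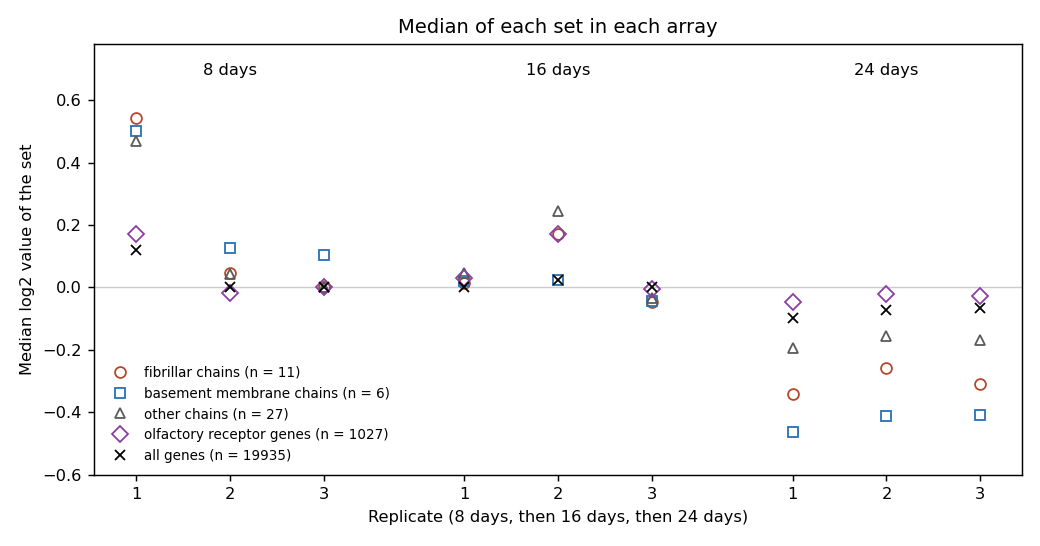
Median log2 value relative to the row median (vertical axis) of the fibrillar, basement membrane and other chains, of the olfactory receptor genes and of all genes in each of the 9 arrays (horizontal axis, by age and replicate). Replicate 1 of 8 days stands above the other arrays of its age in all 3 collagen classes, and all 3 classes lie below 0 in every array of 24 days.

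Chains of each class fell with age. No chain rose in any of the 3 comparisons, while 10.4%, 13.2% and 19.2% of all genes rose at 16 against 8, 24 against 16 and 24 against 8 days. Over the whole span, 26 of 44 chains were lower at 24 than at 8 days by limma with a Benjamini-Hochberg adjusted p of at most 0.05 over all genes, where 35.2% of all genes fell. These were 7 of 11 fibrillar, all 6 basement membrane and 13 of 27 other chains, and their falls were 1.31-fold to 2.46-fold. The largest belonged to types I, III and VI and to Col4a1, and 7 chains were at least 2-fold lower: Col1a1, Col1a2, Col3a1, Col4a1, Col6a1, Col6a2 and Col6a3. The share of all genes at least 2-fold lower is not given here, so this count is not set against the whole array. At an unadjusted p under 0.05, 0 chains were above 0 in limma in each comparison, so that the count of rises was 0 by either criterion.

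The first interval, 16 against 8 days, brought a fall of 11 of 44 chains, where 14.3% of all genes fell. The second interval, 24 against 16 days, brought a fall of 17 of 44 chains, where 20.1% of all genes fell. In each interval on its own test 10 of 44 chains fell, namely Col1a1, Col1a2, Col3a1, Col4a1, Col4a2, Col5a2, Col6a1, Col6a2, Col6a3 and Col18a1, where 8.42% of all genes did so. Col15a1 was the remaining chain that fell at 16 days. A further 7 chains passed in the second interval alone of the pair (Col4a3, Col4a4, Col6a6, Col8a1, Col11a1, Col13a1 and Col23a1), and 8 passed over the whole span without passing in either interval (Col4a5, Col4a6, Col5a1, Col5a3, Col8a2, Col14a1, Col25a1 and Col26a1). The change itself differed between the intervals in 0 of 44 chains by limma, where 5.38% of all genes differed. The smallest adjusted p of that difference was 0.21, for Col1a1, and at an unadjusted p under 0.05 there was 1 chain above 0 and 1 below 0.

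**Figure D2:**
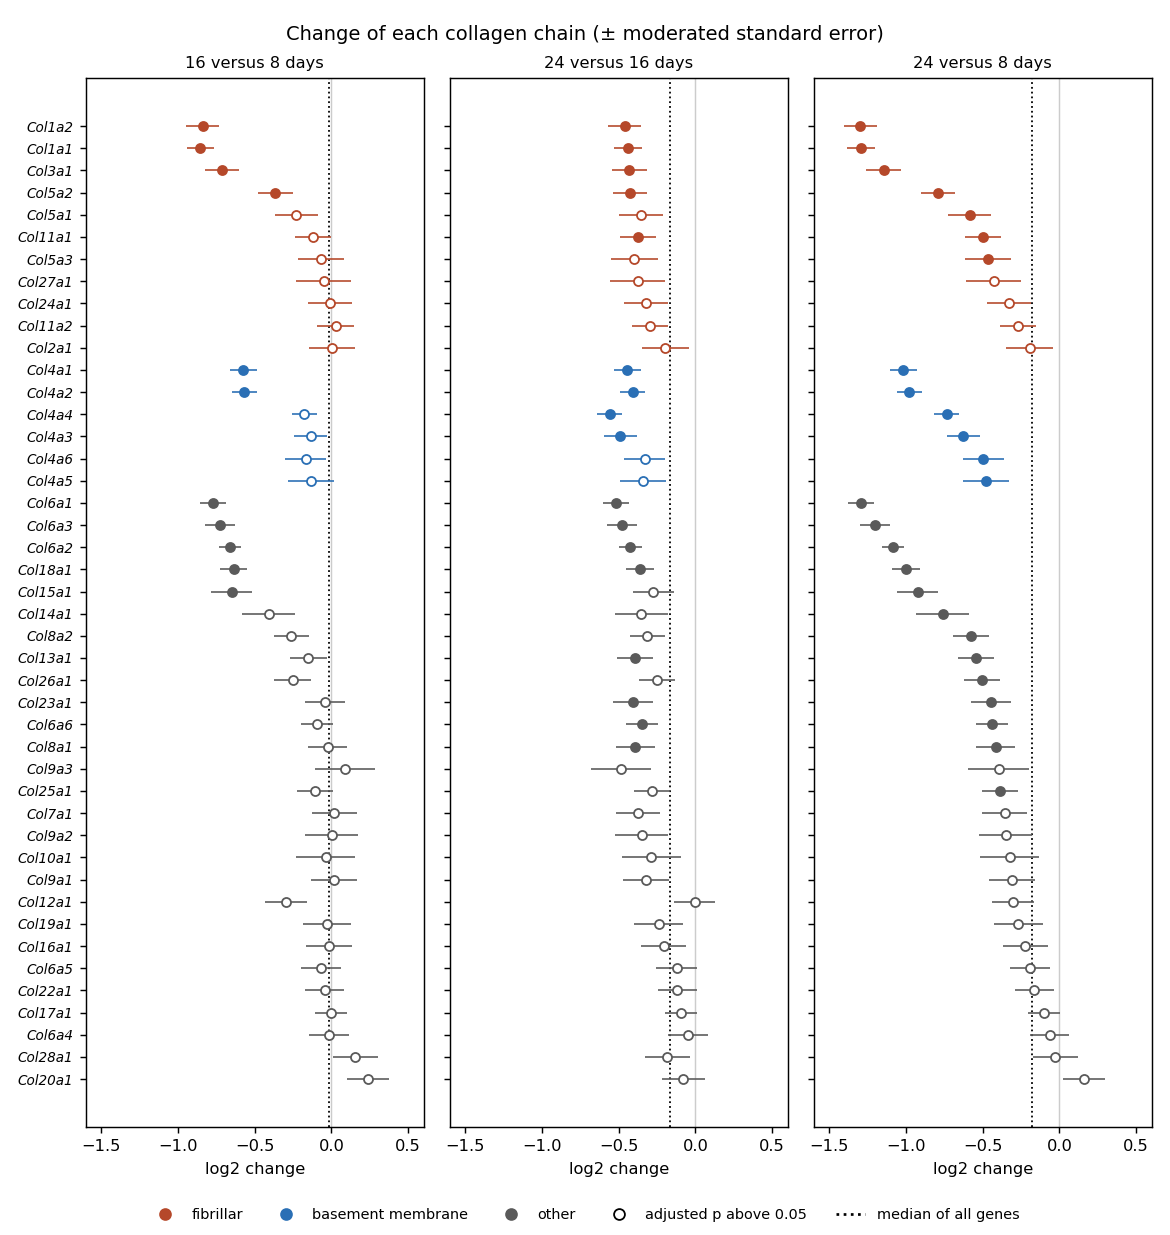
Change of each of the 44 chains (rows, by class) on the log2 scale with its moderated standard error in 16 versus 8, 24 versus 16 and 24 versus 8 days (panels), where filled points have an adjusted p of at most 0.05 and the dotted line is the median of all genes. All 44 chains lie below 0 in 24 versus 16 days, and 43 of 44 do so in 24 versus 8 days.

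The classes were set beside the whole array through their medians. The median change at 24 against 8 days was -0.50 for fibrillar, -0.68 for basement membrane and -0.39 for other chains, against -0.18 for all genes. At 16 against 8 days these medians were -0.12, -0.17 and -0.04, against -0.02 for all genes. At 24 against 16 days they were -0.38, -0.43 and -0.31, against -0.16. Setting the all-gene median of every array to 0 shifted the whole-span changes by 0.12. Relative to the median of all genes the class medians over the whole span were -0.32, -0.50 and -0.21. Centring moves every gene of an array alike, so it cannot change these differences. With that centring 11, 10 and 25 chains fell in the first interval, the second interval and the whole span, where 10.9%, 9.67% and 26.3% of all genes fell. In the arrays themselves, every 24-day array lay below every 16-day array in 34 of 44 chains, where 39.1% of all genes had that order. The same held for 24 against 8 days in 34 of 44 chains (45% of all genes) and for 16 against 8 days in 14 of 44 chains (21.5% of all genes). The full order of 8 above 16 above 24 days without overlap was seen in 14 of 44 chains, and in 14.2% of all genes.

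The type I and type III chains had the largest falls among the fibrillar chains. Col1a1 and Col1a2 encode the 2 kinds of chain of type I collagen, the main protein of most connective tissue fibres. Col1a1 (gene ID 12842) read 0.86, 0.75 and 0.85 in replicates 1, 2 and 3 of 8 days, 0.00, -0.11 and 0.00 at 16 days, and -0.60, -0.35 and -0.48 at 24 days. Col1a2 (gene ID 12843) read 0.74, 0.85 and 0.77 at 8 days, 0.01, -0.17 and 0.00 at 16 days, and -0.70, -0.33 and -0.51 at 24 days. In both genes the arrays of the 3 ages formed separate groups in the order of age. Col1a1 fell by 0.85 ± 0.09 (moderated standard error of the log2 change) in the first interval (limma adjusted p = 0.000108) and by 0.44 ± 0.09 in the second (adjusted p = 0.0056), and was 2.45-fold lower at 24 than at 8 days (adjusted p = 1.6e-06). Col1a2 fell by 0.84 ± 0.11 (adjusted p = 0.0004) and by 0.46 ± 0.11 (adjusted p = 0.0101) in these intervals, and was 2.46-fold lower over the whole span (adjusted p = 5.52e-06). The first fall was numerically larger in both, but the difference between intervals did not pass the test in either.

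Type III collagen, of 3 copies of the Col3a1 chain, is laid down with type I in soft tissue. Col3a1 (gene ID 12825) read 0.70, 0.78 and 0.75 at 8 days, 0.00, 0.08 and 0.00 at 16 days, and -0.61, -0.16 and -0.44 at 24 days, again without overlap between ages. It fell by 0.71 ± 0.11 (limma adjusted p = 0.0014) and by 0.43 ± 0.11 (adjusted p = 0.0163), and was 2.21-fold lower over the whole span (adjusted p = 1.76e-05). Its spread was widest at 24 days, where replicate 2 was the highest array. The call of the second fall was lost without replicate 1 of 16 days and without replicate 1 or 3 of 24 days, with an adjusted p of up to 0.0663.

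Type V collagen sits inside type I fibrils and limits their thickness. Col5a2 (gene ID 12832) read 0.52, 0.40 and 0.22 at 8 days, 0.00, 0.15 and -0.10 at 16 days, and -0.52, -0.27 and -0.44 at 24 days. The ages did not overlap, although the lowest 8-day array was close to the highest 16-day array. Col5a2 fell by 0.36 ± 0.11 in the first interval (limma adjusted p = 0.0376), by 0.43 ± 0.11 in the second (adjusted p = 0.0162) and by 0.79 ± 0.11 over the whole span (adjusted p = 0.00018). The first call was lost when any of 5 arrays was left out, with an adjusted p of up to 0.119 without replicate 3 of 16 days.

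The remaining called fibrillar chains had a high replicate 1 at 8 days. In Col5a1, Col5a3 and Col11a1 alike, the 2 highest arrays were those with high olfactory receptor genes. Col5a1 (gene ID 12831), the partner of Col5a2, read 0.54, 0.03 and 0.09 at 8 days, 0.00, 0.16 and -0.18 at 16 days, and -0.34, -0.32 and -0.42 at 24 days. Its 8-day and 16-day arrays overlapped, while all 24-day arrays were lower than both, and it fell by 0.58 ± 0.14 over the whole span (limma adjusted p = 0.0053). Col5a3 (gene ID 53867), a further type V chain, read 0.54, 0.00 and 0.00 at 8 days, 0.11, 0.30 and -0.07 at 16 days, and -0.28, -0.32 and -0.25 at 24 days. Col5a3 fell by 0.47 ± 0.15 over the whole span (limma adjusted p = 0.0245). This fall had an adjusted p of 0.0678 without replicate 2 of 24 days. It was also not called without replicate 1 of 8 days or replicate 1 or 3 of 24 days. Col11a1 (gene ID 12814), a fibrillar chain best known from cartilage, read 0.40, 0.09 and 0.00 at 8 days, 0.01, 0.17 and -0.05 at 16 days, and -0.43, -0.26 and -0.31 at 24 days. Here too the 2 younger ages overlapped, and Col11a1 fell by 0.38 ± 0.12 in the second interval (adjusted p = 0.0334) and by 0.50 ± 0.12 over the whole span (adjusted p = 0.0046). The other 4 fibrillar chains, Col2a1, Col11a2, Col24a1 and Col27a1, passed in no comparison.

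**Figure D3:**
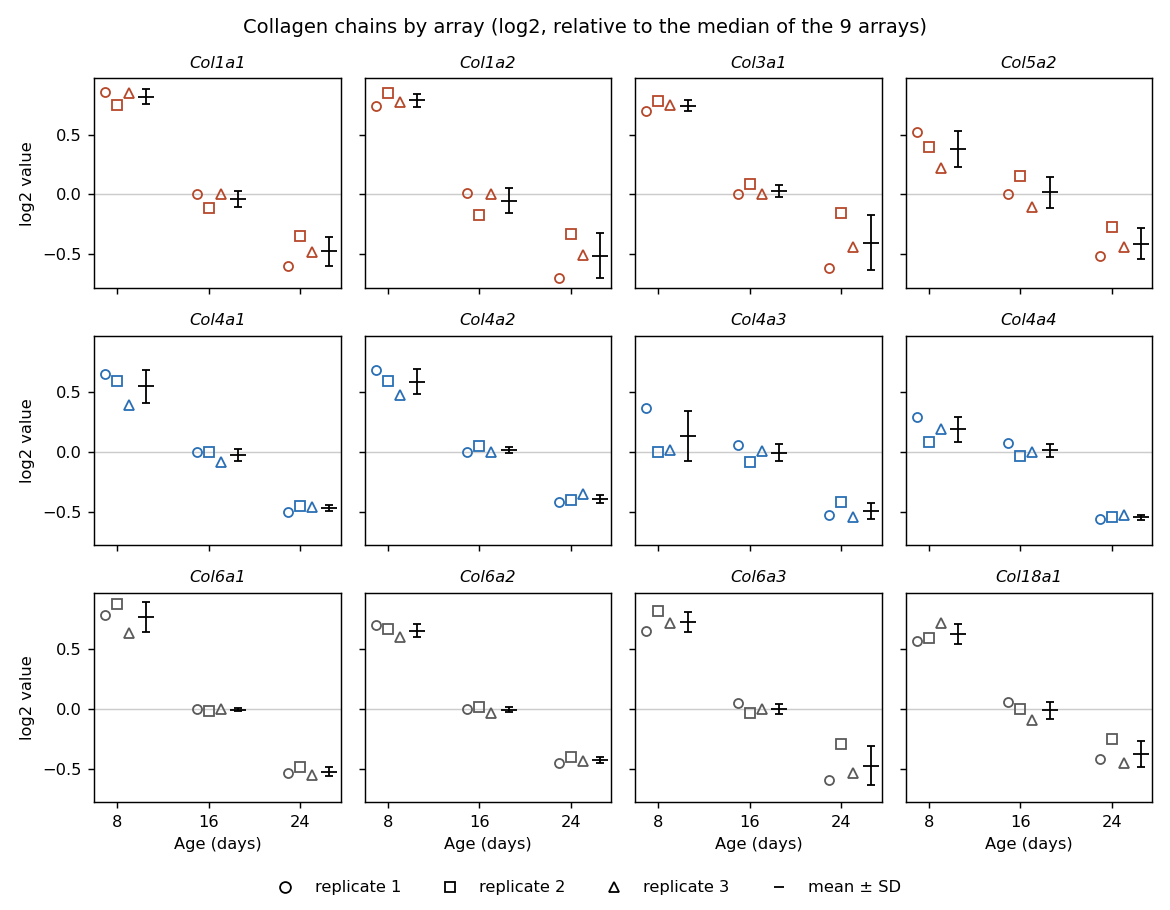
Log2 value relative to the row median (vertical axis) of 12 chains at 8, 16 and 24 days (horizontal axis), with 1 point per array and the mean with its SD (n = 3 per age). All chains shown except Col4a3 step down at each age without overlap.

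All 6 type IV chains were lower at 24 than at 8 days, and they are described by the pairs in which their genes lie. Col4a1 and Col4a2 form the network found in nearly all basement membranes. Col4a1 (gene ID 12826) read 0.65, 0.59 and 0.39 at 8 days, 0.00, 0.00 and -0.09 at 16 days, and -0.50, -0.45 and -0.46 at 24 days. Col4a2 (gene ID 12827) read 0.68, 0.59 and 0.47 at 8 days, 0.00, 0.05 and 0.00 at 16 days, and -0.42, -0.40 and -0.36 at 24 days. Both genes, whose starts lie in the 22 bases printed above, stepped down at each age without overlap. Col4a1 fell by 0.57 ± 0.09 (limma adjusted p = 0.0012) and by 0.44 ± 0.09 (adjusted p = 0.005) in the intervals, and was 2.02-fold lower over the whole span (adjusted p = 7.75e-06). Col4a2 fell by 0.57 ± 0.08 (adjusted p = 0.00083) and by 0.41 ± 0.08 (adjusted p = 0.005), and was 1.97-fold lower over the whole span (adjusted p = 5.94e-06).

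Col4a3 and Col4a4, chains of the network of the glomerular basement membrane of the kidney, passed in the second interval and not in the first. Col4a3 (gene ID 12828) read 0.37, 0.00 and 0.02 at 8 days, 0.06, -0.08 and 0.00 at 16 days, and -0.53, -0.42 and -0.55 at 24 days. Col4a4 (gene ID 12829) read 0.29, 0.08 and 0.19 at 8 days, 0.07, -0.04 and 0.00 at 16 days, and -0.57, -0.55 and -0.53 at 24 days. The 24-day arrays of both lay far below all others. In the first interval the changes were -0.14 ± 0.11 for Col4a3 (limma adjusted p = 0.489) and -0.18 ± 0.08 for Col4a4 (adjusted p = 0.165). In the second interval Col4a3 fell by 0.49 ± 0.11 (adjusted p = 0.0086) and Col4a4 by 0.56 ± 0.08 (adjusted p = 0.0011), which was the largest called fall of any chain in that interval. The limma test of the difference between intervals gave adjusted p = 0.432 for Col4a3 and 0.211 for Col4a4. A difference between the intervals was therefore not shown for either gene. Their timing was not tested against that of Col4a1 and Col4a2.

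Col4a5 and Col4a6, another head-to-head pair with starts 1343 bases apart on chromosome X (RefSeq, GRCm38.p6), passed over the whole span alone. Col4a5 (gene ID 12830) read 0.53, 0.15 and 0.00 at 8 days, 0.04, 0.33 and -0.10 at 16 days, and -0.27, -0.26 and -0.21 at 24 days. Col4a6 (gene ID 94216) read 0.47, 0.11 and 0.02 at 8 days, 0.00, 0.24 and -0.15 at 16 days, and -0.30, -0.27 and -0.34 at 24 days. In both, the highest array of 8 and of 16 days was the one with high olfactory receptor genes, and all 24-day arrays were the lowest. Col4a5 fell by 0.48 ± 0.15 (limma adjusted p = 0.0201) and Col4a6 by 0.50 ± 0.13 (adjusted p = 0.0096). The call of Col4a5 was lost without replicate 1 of 8 days (adjusted p = 0.0601), and also without replicate 1 or 2 of 24 days.

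Type VI collagen makes the beaded filaments that link cells to the surrounding matrix, and its 3 classical chains were among those at least 2-fold lower. Col6a1 (gene ID 12833) read 0.79, 0.88 and 0.63 at 8 days, 0.00, -0.02 and 0.00 at 16 days, and -0.53, -0.48 and -0.56 at 24 days. Col6a2 (gene ID 12834) read 0.70, 0.67 and 0.60 at 8 days, 0.00, 0.01 and -0.03 at 16 days, and -0.45, -0.40 and -0.43 at 24 days. Col6a3 (gene ID 12835) read 0.65, 0.82 and 0.71 at 8 days, 0.05, -0.04 and 0.00 at 16 days, and -0.59, -0.29 and -0.54 at 24 days. All 3 stepped down at each age without overlap. Col6a1 fell by 0.77 ± 0.08 (limma adjusted p = 0.000142) and by 0.52 ± 0.08 (adjusted p = 0.0019), and its 2.44-fold fall over the whole span had the smallest adjusted p of the chains (1.11e-06). Col6a2 was 2.12-fold lower (adjusted p = 1.4e-06) and Col6a3 2.30-fold lower (adjusted p = 5.32e-06) over the whole span. The later-described chains Col6a4, Col6a5 and Col6a6 moved less: Col6a6 fell by 0.44 over the whole span (adjusted p = 0.0045), while Col6a4 changed by -0.06 (adjusted p = 0.686) and Col6a5 was not called either.

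The multiplexins are basement membrane proteoglycans that carry anti-angiogenic fragments at their C-termini. Col15a1 (gene ID 12819) read 0.69, 0.93 and 0.38 at 8 days, -0.10, 0.15 and 0.00 at 16 days, and -0.31, -0.16 and -0.30 at 24 days. Col18a1 (gene ID 12822) read 0.56, 0.59 and 0.72 at 8 days, 0.05, 0.00 and -0.09 at 16 days, and -0.42, -0.25 and -0.45 at 24 days. The 8-day arrays of both were above all later ones. Col15a1 fell by 0.65 ± 0.13 in the first interval (limma adjusted p = 0.0061) and changed by -0.27 in the second (adjusted p = 0.136), and it fell by 0.92 ± 0.13 over the whole span (adjusted p = 0.000223). Col18a1 fell by 0.64 ± 0.09 (adjusted p = 0.000742), by 0.36 ± 0.09 (adjusted p = 0.0133) and by 1.00 ± 0.09 (adjusted p = 9.98e-06), and the call of the second interval was lost without replicate 1 of 16 days and without replicate 1 or 3 of 24 days (adjusted p of up to 0.0653).

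Fibril-associated collagens bind the surface of fibrils. Of these 9 chains 1 passed, over the whole span, where 35.2% of all genes fell. Col14a1 (gene ID 12818), which is found in dense connective tissue, read 0.65, 0.30 and 0.29 at 8 days, -0.05, 0.00 and 0.07 at 16 days, and -0.78, -0.13 and -0.13 at 24 days. Its lowest value was far below the other 24-day arrays, and it fell by 0.76 ± 0.17 over the whole span (limma adjusted p = 0.0037). Col9a3 (gene ID 12841), a chain of the cartilage collagen type IX, read 0.66, 0.04 and -0.05 at 8 days, 0.30, 0.61 and 0.00 at 16 days, and -0.14, -0.17 and -0.23 at 24 days. Its highest arrays were those with high olfactory receptor genes, and its change of -0.40 ± 0.20 did not pass (adjusted p = 0.115). Col12a1 (gene ID 12816), a collagen of tendon and other dense tissue, read 0.48, -0.05 and 0.26 at 8 days, 0.00, 0.00 and -0.21 at 16 days, and -0.19, 0.04 and -0.07 at 24 days. These ages overlapped, and its change over the whole span was -0.30 ± 0.14 (adjusted p = 0.0852). Col9a1, Col9a2, Col16a1, Col19a1, Col20a1 and Col22a1 were not called either.

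Among the network and anchoring chains, those of type VIII fell. Col8a1 and Col8a2 encode the short-chain collagen of vessel walls and of Descemet's membrane in the eye. Col8a2 (gene ID 329941) read 0.50, 0.21 and 0.25 at 8 days, 0.00, 0.18 and 0.00 at 16 days, and -0.39, -0.30 and -0.07 at 24 days, and fell by 0.57 ± 0.12 over the whole span (limma adjusted p = 0.0018). Col8a1 (gene ID 12837) read 0.44, -0.04 and 0.04 at 8 days, 0.21, 0.16 and 0.00 at 16 days, and -0.31, -0.32 and -0.18 at 24 days, with a fall of 0.42 ± 0.13 (adjusted p = 0.0187). The arrays of 8 and 16 days overlapped in Col8a1 but not in Col8a2. Col7a1 (gene ID 12836), which forms the anchoring fibrils under the epidermis, read 0.47, 0.00 and 0.00 at 8 days, 0.13, 0.39 and 0.00 at 16 days, and -0.16, -0.28 and -0.17 at 24 days. Its change of -0.36 ± 0.14 did not pass (adjusted p = 0.0591), although all its 24-day arrays were the lowest. Col10a1, the collagen of hypertrophic cartilage, was not called.

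The transmembrane collagens span the cell membrane and can be shed from it. Of these 4 chains 3 fell over the whole span, where 35.2% of all genes fell. Col13a1 (gene ID 12817), found at cell junctions and at the neuromuscular synapse, read 0.39, 0.25 and 0.00 at 8 days, 0.04, 0.23 and -0.07 at 16 days, and -0.40, -0.30 and -0.29 at 24 days. It fell by 0.54 ± 0.12 over the whole span (limma adjusted p = 0.0028). Col23a1 (gene ID 237759) read 0.38, 0.05 and 0.00 at 8 days, 0.05, 0.32 and -0.07 at 16 days, and -0.33, -0.39 and -0.20 at 24 days, with a fall of 0.45 ± 0.13 (adjusted p = 0.0153). In both, the younger ages overlapped each other and the 24-day arrays were the lowest. Col25a1 (gene ID 77018), first known from amyloid plaques of the brain, read 0.40, 0.04 and 0.00 at 8 days, 0.02, 0.17 and -0.06 at 16 days, and -0.24, -0.28 and -0.19 at 24 days, with a fall of 0.39 ± 0.12 (adjusted p = 0.0168). The whole-span calls of Col23a1 and Col25a1 were lost without replicate 2 of 24 days. Col17a1, the hemidesmosome collagen of skin, was not called.

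Col26a1 (gene ID 140709), which was first described in the mouse testis and ovary, read 0.56, 0.24 and 0.19 at 8 days, 0.00, 0.26 and -0.03 at 16 days, and -0.20, -0.14 and -0.17 at 24 days. It fell by 0.50 ± 0.12 over the whole span (limma adjusted p = 0.0046), with all 24-day arrays below the others. Col28a1 (gene ID 213945), a collagen known mainly from peripheral nerve, read 0.31, -0.18 and -0.10 at 8 days, 0.13, 0.41 and -0.04 at 16 days, and 0.00, 0.02 and -0.07 at 24 days. Its ages overlapped and its change was -0.03 ± 0.15 (adjusted p = 0.89). The 18 chains not called over the whole span changed by -0.43 to 0.16, and Col20a1 was the one with a change above 0.

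Without the pair of arrays high in olfactory receptor genes, 12, 25 and 28 chains fell in the first interval, the second interval and the whole span, where 13.4%, 28.9% and 36.7% of all genes fell. No call over the whole span was lost, Col7a1 and Col27a1 were gained as falls, and Col20a1 was gained as a rise (19.3% of all genes rose). The second interval was the least settled. Its 17 falls became 29 without replicate 1 of 8 days and 11 without replicate 3 of 24 days (limma). They became 9 without replicate 1 of 16 days and 9 without replicate 1 of 24 days. The share of all genes that fell in these omissions is not given here. Leaving out an 8-day array alters the estimate of the spread and not the change between 16 and 24 days. Without replicate 1 of 16 days or replicate 1 of 24 days the call was lost for Col3a1, Col5a2, Col6a6, Col8a1, Col11a1, Col13a1, Col18a1 and Col23a1, and without replicate 3 of 24 days for these except Col6a6. Without replicate 2 of 16 days or replicate 2 of 24 days it was lost for Col6a6, Col8a1, Col11a1, Col13a1 and Col23a1, and without replicate 3 of 8 days for Col8a1, with adjusted p values of up to 0.133 over these omissions. Over the whole span the calls of Col4a5, Col5a3, Col8a1, Col23a1 and Col25a1 were lost without replicate 2 of 24 days. Those of Col4a5, Col5a3 and Col8a1 were also lost without replicate 1 of 24 days, those of Col4a5 and Col5a3 without replicate 1 of 8 days, and that of Col5a3 without replicate 3 of 24 days. The adjusted p values of limma reached 0.0678 in these omissions. With blank cells left missing in place of 0, the falls of the second interval were no longer called for Col1a1 (adjusted p = 0.102), Col3a1 (0.0825), Col4a1 (0.0891), Col8a1 (0.0521), Col18a1 (0.0507) and Col23a1 (0.0535), nor that of the first interval for Col5a2 (0.102). Col7a1, Col9a1 and Col27a1 then fell over the whole span, and Col7a1 and Col9a3 in the second interval.

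Chains that assemble together differed in how closely they kept within an array. The difference of Col4a1 minus Col4a2, each relative to its own row median, stayed between -0.11 and 0.00 in all 9 arrays. That of Col1a1 minus Col1a2 stayed between -0.10 and 0.12, and that of Col4a5 minus Col4a6 between -0.02 and 0.12. The chains of type V and type VIII lay further apart: Col5a1 minus Col5a2 ran from -0.36 to 0.18, and Col8a1 minus Col8a2 from -0.25 to 0.21. Their spans over the 9 arrays, 0.54 and 0.46, were near that of Col1a1 minus Col4a1, a pair from different classes (0.56). The other pairs of one type, in types IV (Col4a3 and Col4a4), VI, IX and XI, spanned 0.23 to 0.36. Col6a1 minus Col6a2 averaged 0.11 ± 0.09 at 8 days, 0.00 ± 0.03 at 16 days and -0.10 ± 0.02 at 24 days (SD, n = 3 each). Col1a1 minus Col4a1 averaged 0.27 ± 0.16, -0.01 ± 0.10 and 0.00 ± 0.10 at these ages (SD, n = 3 each). These differences were not tested.

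Most genes that modify and fold collagen in the cell were lower at 24 than at 8 days. Of 22 measured genes of this list, 11 fell in the first interval, 9 in the second and 18 over the whole span, and 0, 1 and 2 rose. Of all genes 14.3%, 20.1% and 35.2% fell and 10.4%, 13.2% and 19.2% rose in these comparisons. The median whole-span change of the list was -0.75, against -0.18 for all genes. Creb3l1, a membrane-bound transcription factor that drives collagen gene expression in bone-forming cells, read 1.13, 1.31 and 1.25 at 8 days, -0.10, 0.00 and 0.13 at 16 days, and -0.17, -0.15 and -0.37 at 24 days. Its fall of 1.46 ± 0.10 over the whole span (limma adjusted p = 1.35e-06) came with no overlap between 8 days and the later ages. Plod1, a lysyl hydroxylase, fell by 1.20 ± 0.12 (adjusted p = 2.33e-05). Colgalt1 and Colgalt2, which add galactose to hydroxylysine, fell by 0.72 ± 0.08 (adjusted p = 4.11e-05) and by 0.79 ± 0.08 (adjusted p = 2.69e-05). The genes that rose, named after their values were seen, were Mia3, which helps to load procollagen into transport carriers (0.80 ± 0.13, adjusted p = 0.000414), and Tmem38b, a cation channel of the endoplasmic reticulum (0.39 ± 0.12, adjusted p = 0.0161).

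Of 12 measured genes that trim or crosslink collagen outside the cell, 7 fell in the first interval, 5 in the second and 11 over the whole span, and none rose, while 14.3%, 20.1% and 35.2% of all genes fell. The median whole-span change of the list was -0.69, against -0.18 for all genes. Lox, the lysyl oxidase that starts crosslinks in fibrils, read 1.21, 1.22 and 1.38 at 8 days, 0.00, -0.63 and 0.12 at 16 days, and -1.02, -0.62 and -0.78 at 24 days. Its replicate 2 of 16 days lay among the 24-day arrays, and its fall over the whole span was 2.08 ± 0.18 (limma adjusted p = 8.2e-06). Pxdn, the peroxidase that crosslinks type IV collagen, fell by 2.03 ± 0.14 (adjusted p = 1.36e-06). Bmp1, which removes the C-terminal propeptide of fibrillar procollagens, fell by 1.53 ± 0.11 (adjusted p = 1.49e-06), and Pcolce, which enhances that cleavage, fell by 1.27 ± 0.13 (adjusted p = 2.33e-05).

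Of 9 measured collagen receptors, 3 fell in the first interval, 3 in the second and 5 over the whole span, and 0, 1 and 1 rose. The shares of all genes were 14.3%, 20.1% and 35.2% for falls and 10.4%, 13.2% and 19.2% for rises. The median whole-span change of the list was -0.36, against -0.18 for all genes. Itgb1, the beta subunit common to the collagen-binding integrins, fell by 1.18 ± 0.11 (limma adjusted p = 1.64e-05). Mrc2, an endocytic receptor for collagen fragments, fell by 0.93 ± 0.09 (adjusted p = 1.7e-05). The discoidin domain receptors, which are tyrosine kinases activated by collagen, fell by 1.11 ± 0.18 (Ddr1, adjusted p = 0.000383) and by 1.03 ± 0.13 (Ddr2, adjusted p = 0.000103). The receptor that rose, named after its values were seen, was Itga1, the alpha subunit of an integrin that binds collagen. It read -0.05, 0.03 and -0.06 at 8 days, -0.20, 0.00 and -0.18 at 16 days, and 0.89, 0.46 and 0.51 at 24 days, and its rise was 0.65 ± 0.12 (adjusted p = 0.0011).

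**Figure D4:**
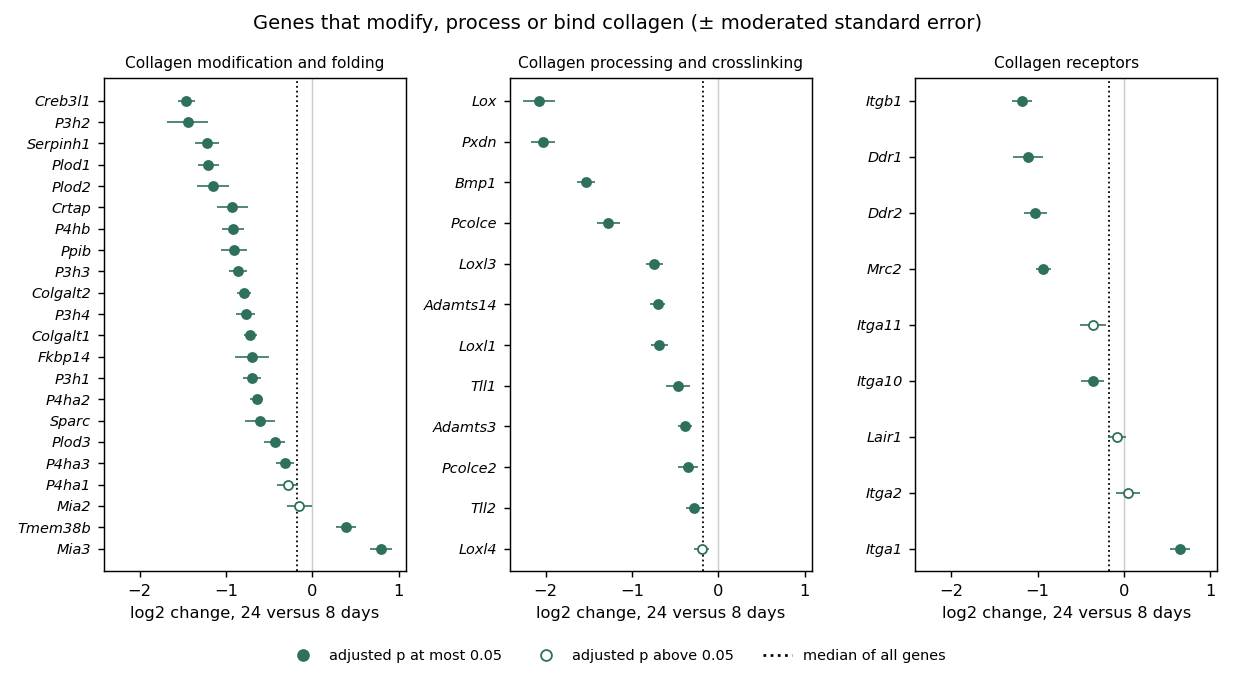
Log2 change at 24 versus 8 days (horizontal axis) with its moderated standard error for the measured genes that modify, process or bind collagen (rows, by list), where filled points have an adjusted p of at most 0.05. Pxdn and Lox fell by about 2 log2 units, and Mia3, Tmem38b and Itga1 lie above 0 with filled points.

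Most markers of somatic cells of the testis were lower at 24 than at 8 days, where 35.2% of all genes fell and 19.2% rose. Of 8 peritubular myoid markers 7 fell and 1 rose, and 5 of 5 interstitial fibroblast, 7 of 7 endothelial, 9 of 9 Sertoli and 5 of 5 Leydig markers fell. Of 6 macrophage markers 3 fell. All 8 spermatocyte and all 8 spermatid markers rose. The myoid markers averaged 0.26 to 0.38 in the arrays of 8 days, -0.12 to 0.01 in those of 16 days and -0.19 to -0.06 in those of 24 days. The myoid marker that rose, named after its values were seen, was Actg2, a smooth muscle actin, with 2.08, 1.22 and 1.08 at 24 days and a rise of 1.47 ± 0.23 over the whole span (limma adjusted p = 0.000337). Without Actg2 the other 7 myoid markers averaged 0.31 to 0.44 at 8 days, -0.11 to 0.05 at 16 days and -0.48 to -0.24 at 24 days. The fibroblast markers averaged 0.53 to 0.99, -0.43 to 0.15 and -0.92 to -0.39 at these ages. The endothelial markers averaged 0.47 to 0.69, -0.06 to 0.03 and -0.33 to -0.16, and the Sertoli markers 0.65 to 0.82, -0.27 to 0.12 and -0.74 to -0.50. The Leydig markers averaged 1.32 to 1.72, -0.87 to -0.33 and -1.07 to -0.11. These 5 lists were highest at 8 days without overlap with either later age. The Leydig arrays of 16 and 24 days overlapped, and in the second interval 1 Leydig marker fell and 1 rose, with a median change of 0.48. The macrophage markers averaged 0.07 to 0.46, -0.01 to 0.05 and -0.24 to 0.08, so that the arrays of 8 and 24 days overlapped. Of markers of tissues outside the testis, 3 of 6 chondrocyte markers fell and 2 rose, 1 of 6 skeletal muscle markers fell, and none of 5 epididymal markers or of 1 measured erythroid marker was called. As the values are centred, they do not show which of these markers were absent. The part of these cell types in the collagen changes was not tested.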

How the data were processed

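The samples were 9 arrays of whole mouse testis, 3 at each of 8, 16 and 24 days. The authors deposited log2 values for 28815 rows, each relative to its row median. Background correction, normalization and summarization are not given in the sources used here. Blank cells (38964) were taken as 0, since every row median was then 0. Of the rows, 21780 had 1 gene symbol in the probe table, 1605 several and 5430 none. Averaging the rows of each gene gave 19935 genes. Of 46 collagen rows, 35 had 1 blank. All 44 collagen gene IDs matched RefSeq (GRCm38.p6).

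Changes were estimated with limma 3.58.1 (R 4.3.3). One mean for each age was fitted to all 9 arrays with lmFit, and eBayes moderated the variances (residual degrees of freedom 6, prior 3.82). The tested contrasts were 16 minus 8 days, 24 minus 16 days, 24 minus 8 days and the second interval minus the first, 2-sided, with a Benjamini-Hochberg threshold of 0.05 across the whole set of genes. The fit was tested on simulated data. The number of arrays limits the precision. Nothing in the labels besides the design text shows separate animals, and p-values measure the spread between these arrays.

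The members, lists and alternatives were chosen with earlier results of these data known. Values by array are given for fibrillar and type IV chains called in any comparison and for up to 3 chains of each other class with the smallest moderated F p. Up to 4 genes of each other list with the smallest adjusted p at 24 versus 8 days are named. The fit reported has no term for the replicate number. Alternatives covered blanks, centring, array weights, robust eBayes, an olfactory receptor covariate, left-out arrays and a 2-fold minimum.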

Additional observations from a re-analysis of the deposited data

How the results depend on the processing

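No count of chains turned its direction under any alternative. Where a chain was called neither as reported nor in the alternative, the sign of its change turned in 116 instances over all alternatives. The median difference between intervals of all chains was -0.18 as reported and 0.07 with the mean of olfactory receptor genes as a covariate. For all chains, the 11 falls at 16 versus 8 days became 7 with rows of 1 blank alone and 0 with a 2-fold minimum. With the mean of olfactory receptor genes as a covariate they became 17. Of all genes, 14.3% fell at 16 versus 8 days as reported and 19.1% with that covariate. At 24 versus 16 days 20.1% of all genes fell as reported and 9.67% with centred arrays. Without the arrays high in olfactory receptor genes this share was 28.9%. The 17 falls at 24 versus 16 days became 10 with each array centred on its median, 0 with the replicate block on the 6 numbered arrays and 0 with a 2-fold minimum, and the 26 falls at 24 versus 8 days became 7 with that minimum. Rises at 24 versus 8 days, 0 in the limma fit reported, became 1 with array weights, 1 without the arrays high in olfactory receptor genes and 1 with that covariate. The share of all genes called is not given for blanks left missing, rows of 1 blank, array weights, the replicate block or the 2-fold minimum. The counts under those settings, here and below, therefore cannot be read as particular to collagen chains.

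Fibrillar falls became 2 with rows of 1 blank and 0 with the 2-fold minimum at 16 versus 8 days (4 as reported). At 24 versus 16 days (5 as reported) they became 3 with blanks left missing, 3 with rows of 1 blank, 3 with centred arrays, 9 without the arrays high in olfactory receptor genes, 0 with the replicate block and 0 with the 2-fold minimum, and at 24 versus 8 days 3 with that minimum (7 as reported). Basement membrane falls at 16 versus 8 days (2 as reported) became 1 with rows of 1 blank, 4 with the covariate, 1 with the replicate block and 0 with the 2-fold minimum. Those at 24 versus 16 days (4 as reported) became 0 with the replicate block and 0 with the 2-fold minimum, and those at 24 versus 8 days 1 with that minimum (6 as reported). Other chains became 8 with the covariate and 0 with the 2-fold minimum at 16 versus 8 days (5 as reported). At 24 versus 16 days (8 as reported) they became 3 with centred arrays, 0 with the replicate block and 0 with the 2-fold minimum, and at 24 versus 8 days 3 with that minimum (13 as reported). The block leaves fewer arrays by construction, and the 2-fold minimum and the rows of 1 blank leave fewer eligible chains. Col1a1, Col3a1, Col4a1 and Col6a1, all called as reported, have 2 blanks each. They were therefore left out with rows of 1 blank and did not lose a call by a test. For the other alternatives the cause was not tested.

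With 1 array left out, falls at 24 versus 16 days ranged from 9 to 29 for all chains. They ranged from 2 to 10 for fibrillar and from 3 to 13 for other chains. The share of all genes that fell is not given for runs with 1 array left out. At 16 versus 8 days all chains ranged from 10 to 12, and at 24 versus 8 days from 21 to 29. The chains that differed between intervals stayed at 0 in every alternative run. Same-numbered arrays deviated from their age means with correlations of -0.46 to 0.20, and replicate 1 of 8 days with replicate 2 of 16 days at 0.60. Deviations from a mean of 3 arrays depend on each other. These correlations therefore cannot decide whether same-numbered arrays share more than a number. Signal over background is unknown, since the values are centred.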

Other observations

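Col20a1, a fibril-associated chain, read 0.11, -0.33 and -0.24 at 8 days, 0.14, 0.27 and -0.16 at 16 days, and 0.00, 0.01 and 0.00 at 24 days. Its change at 24 versus 8 days was 0.16 in the limma fit reported (adjusted p = 0.341). It became a rise of 0.29 without the arrays high in olfactory receptor genes (adjusted p = 0.0349), of 0.29 with their mean as a covariate (adjusted p = 0.0049) and of 0.25 with array weights (adjusted p = 0.0144). Over all its alternatives the adjusted p ranged from 0.0049 to 0.691.

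The 2 rows of Col6a5 did not have the same course. One averaged 0.05 ± 0.20 at 8 days, -0.10 ± 0.15 at 16 days and 0.00 ± 0.06 at 24 days, and the other 0.14 ± 0.27, 0.16 ± 0.27 and -0.19 ± 0.08 (SD, n = 3 each). Both rows of Col6a6 were lowest at 24 days, where they averaged -0.37 ± 0.08 and -0.19 ± 0.09 (SD, n = 3 each). These rows were averaged for the results above.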
